A study of Homo sapiens with 18 samples.

Results

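Untreated A375 cells were set against untreated SKMEL5 and untreated WM2664 cells, and the genes described are those for which A375 differed in the same direction from each of the other lines. Of 10841 genes tested, 3438 were higher and 2685 were lower in A375 than in both other lines, 6123 in all. All 3 are established human melanoma cell lines, grown in RPMI with 10% fetal bovine serum. Their RNA was read on 1-colour Affymetrix arrays, on which each gene is measured by 1 or more probe sets. The groups were A375, SKMEL5 and WM2664, each treated with the solvent DMSO for 6 h or 24 h with 2 arrays at each time, so 12 of the series' 18 arrays were used. The 6 other arrays, 1 per line and time, hold cells treated with A-485, an inhibitor of the acetyltransferases p300 and CBP, at a dose given in the labels as 3 mM, and enter only where that is said. Each group is a single cell line, so a difference between lines cannot be told apart from any other property in which these lines differ. Whether the replicate arrays hold separate cultures is not stated in the labels; if they do not, the p-values cover only technical spread.

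MITF is the master regulator of melanocytes: it binds E-box sequences near genes for pigment enzymes, melanosome proteins, survival and metabolism. Melanoma cells occur along an axis between a melanocytic state, with high MITF and SOX10 and pigment genes, and a less differentiated or mesenchymal-like state with low MITF. The second state is known for the receptor tyrosine kinases AXL and EGFR, for AP-1 factors and YAP-TEAD target genes, and for secreted factors, matrix and invasion genes. The comparison asks which genes set A375 apart from 2 lines with high MITF.

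Values are array intensities after quantile normalization of the 12 arrays, called scaled intensities here; readings below 32 were set to that floor. Differences are A375 minus the other line on the log2 scale of these intensities, ± SE from a limma model with line and time, and calls were made where the Benjamini-Hochberg adjusted p lay under 0.05. A fold is written "at least" where the lower side held arrays at the floor, and levels were not compared between genes, since probe sets differ in brightness. Where 4 values are given for a line, they are the replicates 1 and 2 at 6 h and then the replicates 1 and 2 at 24 h. Where a pair of differences stands in parentheses, the first is from SKMEL5 and the second from WM2664. The precision is limited by the number of arrays: replicate arrays correlated at 0.989 to 0.994 across genes, and the median SE of a difference was 0.08. Genes of another line read slightly high on 3 arrays. Genes of SKMEL5 that were at or near the floor on the other arrays of a line stood at 0.78% of their SKMEL5 level (median) on the first A375 6 h array and at 1.40% on the first WM2664 6 h array, and such genes of A375 at 0.74% on the second WM2664 24 h array. The same measure ran from -0.60% to 0.16% on the other 9 arrays, and for genes of WM2664 it was 0.26% on the first A375 6 h array. Whether these readings come from RNA of another line was not tested. Their part in the results was not tested beyond leaving these 3 arrays out, which gave 3274 genes higher and 2495 lower in A375.

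A375 stood apart from each line to about the same extent. It differed from SKMEL5 in 8708 genes (80.3% of those tested, 42.5% higher and 37.8% lower) and from WM2664 in 8694 (80.2%, 44.1% higher and 36.1% lower), while SKMEL5 and WM2664 differed from each other in 7805 (72%). With so many genes called, a call alone says little, and lists are read against the shares over all genes tested: 31.7% were higher in A375 than in both other lines, 24.8% were lower and 10.4% were called in opposite directions. Higher genes thus made up 56.15% of those called the same way, 63.29% when arrays were scaled to one median and 71.83% without normalization between arrays, which also moved the median difference over all genes to 0.25 against SKMEL5 and 0.42 against WM2664. A stricter count took genes that were also at least 2-fold different from both lines: 1083 higher (9.99% of genes tested) and 1022 lower (9.43%). The same stricter count was 666 higher and 454 lower for SKMEL5 against the other two, and 676 higher and 438 lower for WM2664. All 4 A375 arrays lay above all 8 others for 3153 genes (29.1%) and below them for 2358 (21.8%). The smaller of the 2 differences had a median size of 0.72 over the called genes, and 2459 of them were under 1.5-fold. Both differences were at least 8-fold for 119 higher and 151 lower genes. In 226 of the lower genes A375 was at the floor on all 4 arrays, and in 176 of the higher genes both other lines were at the floor on all 8. Those 176 passed the filter on low values through A375 alone, so they could not come out lower. Likewise the 226 passed it through the other lines alone and could not come out higher. The genes just inside the threshold were FBXL5, SLC35A3 and NR1D2, with a larger adjusted p of 0.0498, 0.0498 and 0.0497, and those just outside were ETV4, FMO4 and SLC9A3-AS1, at 0.0502, 0.0504 and 0.0507.

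**Figure D1:**
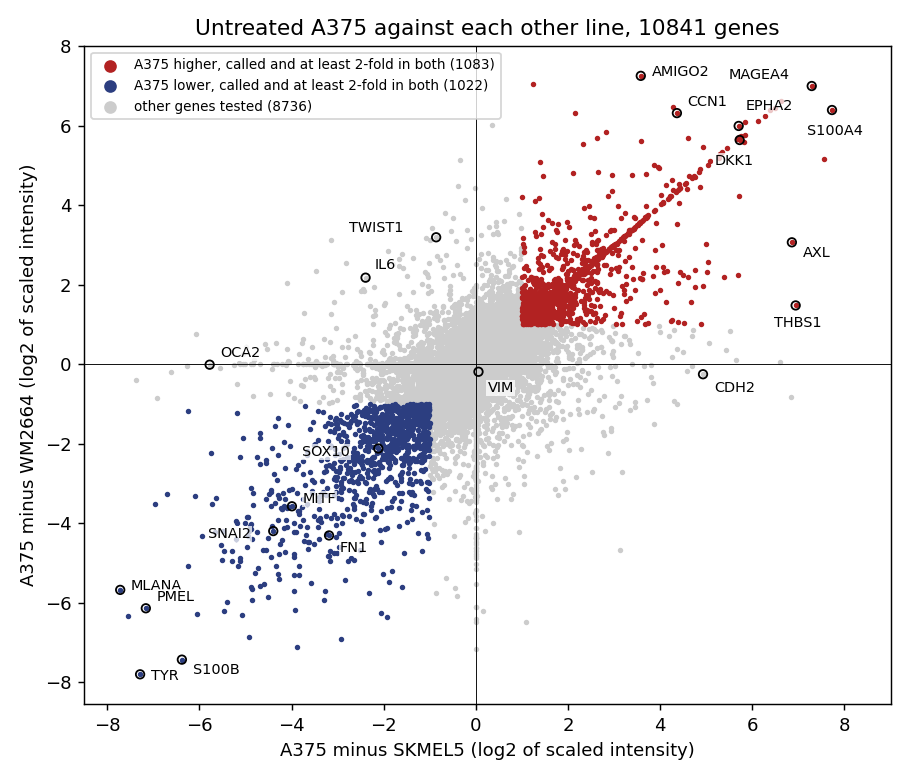
The difference of untreated A375 from SKMEL5 (horizontal) and from WM2664 (vertical), both on the log2 scale of scaled intensity, for the 10841 genes tested; 1 point is 1 gene, and circled genes are named. The 1083 higher genes (red) and 1022 lower genes (blue) fill opposite corners, with TYR, MLANA and PMEL far down on the left and MAGEA4, S100A4 and DKK1 far up on the right; points on the diagonal line at the upper right are genes at the floor in both other lines. VIM, CDH2, OCA2, TWIST1 and IL6 lie outside both corners.

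MITF itself was lower in A375. MITF read 438, 387, 406 and 446 on the A375 arrays, against 6772, 6706, 6524 and 6633 on the SKMEL5 arrays and 5003, 5059.9, 4915 and 4982 on the WM2664 arrays. The 3 groups did not overlap, and the A375 level was 15.9-fold lower than in SKMEL5 and 11.9-fold lower than in WM2664 (-3.99 ± 0.05, -3.58 ± 0.05; adjusted p 1.2e-13 and 2.41e-13). A second probe set of MITF gave -4.17 and -3.63, and one more, dim, gave -2.0 and -0.38. A375 was thus the line with the lowest MITF on these arrays, with readings above the floor on all 4.

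Of 28 tested regulators and markers of the melanocyte and neural crest lineage, 16 were lower in A375 and 4 were higher, and 14 and 3 of them by at least 2-fold. The 2-fold shares were 50% lower and 10.7% higher, against 9.43% and 9.99% of all genes tested. SOX10, which drives MITF transcription, was lower but still well above the floor. SOX10 read 693, 878, 699 and 742 on the A375 arrays, against 3052, 3247, 3311 and 3414 on the SKMEL5 arrays and 3017, 3316, 3360.5 and 3362 on the WM2664 arrays. Its difference was -2.12 ± 0.08 against SKMEL5 and -2.12 ± 0.08 against WM2664, 4.34-fold lower than in SKMEL5 and 4.35-fold lower than in WM2664, and the A375 arrays lay below all others. PAX3, a partner of SOX10 at the MITF promoter, showed a smaller difference of -1.39 ± 0.09 against SKMEL5 and -1.26 ± 0.09 against WM2664. TFAP2A, an AP-2 factor that acts beside MITF in melanocytes, differed by -3.08 ± 0.05 against SKMEL5 and -2.49 ± 0.05 against WM2664, and LEF1, a nuclear effector of Wnt signalling, by -2.18 ± 0.09 against SKMEL5 and -3.07 ± 0.09 against WM2664.

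The receptors of the lineage were lower too. EDNRB read 187, 188, 189.6 and 146 on the A375 arrays, against 3585, 3681, 3696 and 3409.9 on the SKMEL5 arrays and 5805, 5556, 6003 and 6324 on the WM2664 arrays. EDNRB, the endothelin receptor of melanoblasts, was thus 20.4-fold lower than in SKMEL5 and 33.5-fold lower than in WM2664, with no overlap of A375 and the other lines. ERBB3, the neuregulin receptor of the neural crest, differed by -2.28 ± 0.06 against SKMEL5 and -3.58 ± 0.06 against WM2664. S100B, a calcium-binding protein used to mark melanocytic tumours, had one of the largest differences of all genes. S100B read 32.6, 32, 32 and 32 on the A375 arrays, against 2446, 2404, 2818 and 3108 on the SKMEL5 arrays and 5466, 5311, 5805 and 5704 on the WM2664 arrays. That is at least 83.3-fold lower than in SKMEL5 and at least 173-fold lower than in WM2664. Other lower members were S100A1 (-4.83 ± 0.12, -3.25 ± 0.12), SOX4 (-2.80 ± 0.09, -3.64 ± 0.09), POU3F2 (-1.73 ± 0.12, -2.22 ± 0.12), TBX2 (-3.07 ± 0.15, -4.74 ± 0.15, with all 4 A375 arrays at the floor), ETV1 (-1.19 ± 0.06, -1.40 ± 0.06) and ETV5 (-1.61 ± 0.07, -2.35 ± 0.07). CDH19 and MIA were called lower at under 2-fold in at least 1 comparison, and without normalization between arrays CDH19 lost its call against SKMEL5 and MIA against WM2664.

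The 4 higher members were TBX3, MSX1, SOX9 and SOX2. TBX3 read 1092, 1079, 868 and 999 on the A375 arrays, against 77.2, 69.1, 68 and 49.7 on the SKMEL5 arrays and the floor on all 4 WM2664 arrays. TBX3, a T-box repressor, was thus seen in A375 and near or at the floor elsewhere, the opposite of its relative TBX2. SOX9, a neural crest factor that is often high where SOX10 is low, was higher by 3.18 ± 0.15 against SKMEL5 and 1.00 ± 0.15 against WM2664, and MSX1 by 2.41 ± 0.10 against SKMEL5 and 1.99 ± 0.10 against WM2664. SOX2 was dim in all lines and under 2-fold. The other 8 tested members were not called in both comparisons in one direction.

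**Figure D2:**
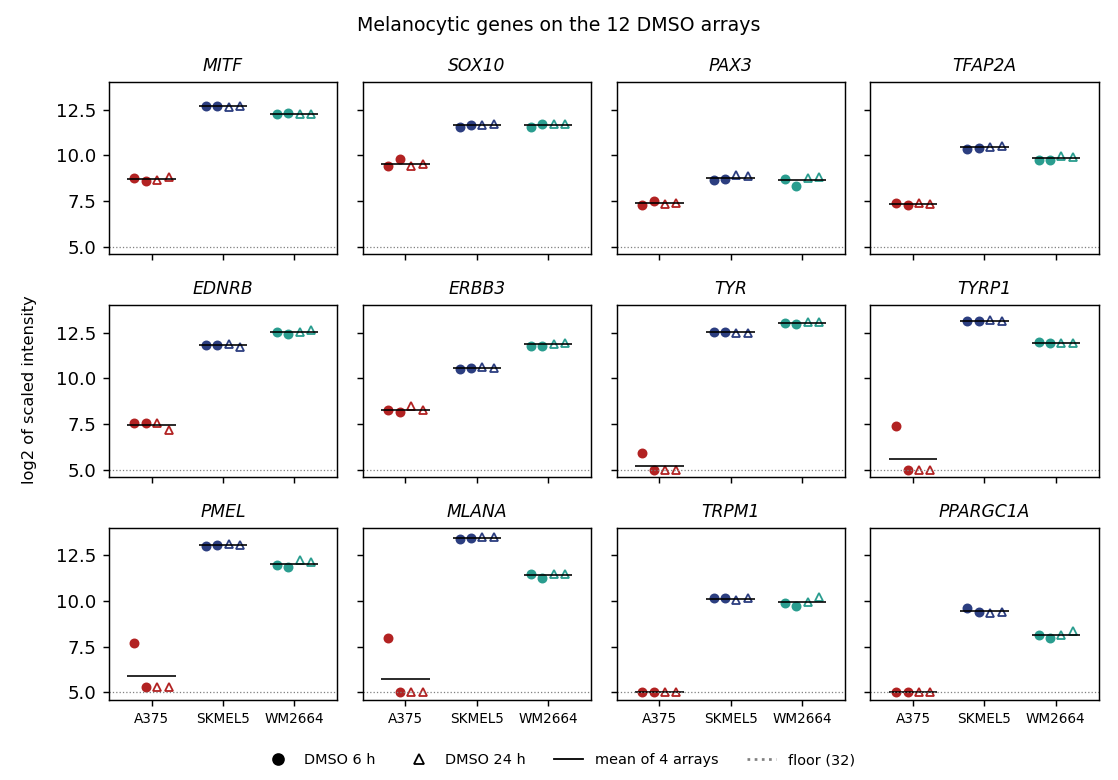
Scaled intensity (log2) of 12 melanocytic genes on each of the 12 DMSO arrays, with A375 left, SKMEL5 in the middle and WM2664 right; circles are 6 h, triangles 24 h, bars the mean of 4 arrays, and the dotted line the floor of 32. A375 lies below both other lines for every gene shown, and for TYR, TYRP1, PMEL and MLANA the first A375 6 h array stands above the other 3 A375 arrays.

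Pigmentation genes were the most uniformly lower list. Of 14 tested genes of melanin synthesis and the melanosome, 13 were lower in A375 than in both lines by at least 2-fold (92.9% of the list, against 9.43% of all genes tested), and none was higher. The median difference over the list was -3.89 against SKMEL5 and -3.52 against WM2664, while over all genes tested the medians were 0.04 and 0.08. TYR encodes tyrosinase, the rate-limiting enzyme of melanin synthesis. TYR read 59.9, 32, 32 and 32 on the A375 arrays, against 5995, 5968, 5753 and 5674 on the SKMEL5 arrays and 8331, 8068, 8586 and 8520.0 on the WM2664 arrays. The 3 A375 arrays at the floor and the single reading above it were far below the other lines, at least 156-fold lower than in SKMEL5 and at least 224-fold lower than in WM2664 (-7.29 ± 0.17, -7.81 ± 0.17). TYRP1, a second enzyme of eumelanin synthesis, had the same pattern. TYRP1 read 170.5, 32, 32 and 32 on the A375 arrays, against 9024, 9103, 9256 and 9012 on the SKMEL5 arrays and 4048, 3863, 3896 and 3938 on the WM2664 arrays. PMEL, which forms the fibrils on which melanin is deposited, read 213, 39.8, 39.5 and 38.9 on the A375 arrays, against 8396 to 8825 in SKMEL5 and 3754 to 4805 in WM2664. MLANA, a melanosomal protein and diagnostic antigen, read 252 on the first A375 6 h array and the floor on the other 3. These 4 readings on the first A375 6 h array are on an array where genes of SKMEL5 read slightly high. Without that array the differences against SKMEL5 and WM2664 were -7.48 and -8.0 for TYR, -8.13 and -6.92 for TYRP1, -7.77 and -6.76 for PMEL and -8.45 and -6.41 for MLANA.

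The transporters and trafficking proteins of the melanosome differed less evenly. SLC45A2, a melanosomal membrane transporter, and GPR143, a melanosomal receptor, read less than 1 unit above the floor or at it throughout A375 and differed by -5.16 ± 0.09 against SKMEL5 and -5.08 ± 0.09 against WM2664 and by -4.13 ± 0.09 against SKMEL5 and -3.40 ± 0.09 against WM2664. GPNMB, a melanosomal and lysosomal glycoprotein, remained readable in A375. GPNMB read 482, 456, 404 and 401 on the A375 arrays, against 5378, 5354, 5354 and 5629 on the SKMEL5 arrays and 9505, 9206, 9830.0 and 10102 on the WM2664 arrays. RAB38 and RAB27A, small GTPases of melanosome biogenesis and transport, differed by -3.23 ± 0.08 against SKMEL5 and -3.10 ± 0.08 against WM2664 and by -3.17 ± 0.09 against SKMEL5 and -1.67 ± 0.09 against WM2664. Their motor MYO5A differed by -2.64 ± 0.08 against SKMEL5 and -3.64 ± 0.08 against WM2664, and the linker MLPH by -1.34 ± 0.05 against SKMEL5 and -1.34 ± 0.05 against WM2664. HPS4, a subunit of an exchange factor for RAB38, and ATP7A, which supplies copper to tyrosinase, completed the lower members at -3.31 ± 0.15 against SKMEL5 and -1.20 ± 0.15 against WM2664 and -1.24 ± 0.14 against SKMEL5 and -2.30 ± 0.14 against WM2664. OCA2, a melanosomal anion channel, was the exception. OCA2 read 72.2, 64, 65.7 and 75 on the A375 arrays, against 3412, 3526, 4185 and 4092 on the SKMEL5 arrays and 159, 32, 91.8 and 50.2 on the WM2664 arrays. It separated SKMEL5 from both other lines, and A375 and WM2664 overlapped.

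The promoters of lower genes shown here all hold MITF's E-box, which can be read in them directly. Most promoters of the genes at least 8-fold lower do not hold it. The 250 bases before the gene start are given 5′ to 3′ on the strand of the gene (RefSeq, GRCh38.p14), with each match in capitals: CATGTG or its reverse complement CACATG.

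TYR, chr11:89177625-89177874, plus strand: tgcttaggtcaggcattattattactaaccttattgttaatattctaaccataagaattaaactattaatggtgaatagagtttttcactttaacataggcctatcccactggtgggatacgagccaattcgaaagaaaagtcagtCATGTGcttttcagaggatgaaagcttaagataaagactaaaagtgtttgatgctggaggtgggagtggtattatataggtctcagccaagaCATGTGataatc
TYRP1, chr9:12693135-12693384, plus strand: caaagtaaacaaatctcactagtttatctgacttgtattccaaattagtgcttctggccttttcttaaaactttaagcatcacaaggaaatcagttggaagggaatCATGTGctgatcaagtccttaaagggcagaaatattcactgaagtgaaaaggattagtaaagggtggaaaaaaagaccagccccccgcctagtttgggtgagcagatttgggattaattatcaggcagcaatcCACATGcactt
TRPM1, chr15:31161161-31161410, minus strand: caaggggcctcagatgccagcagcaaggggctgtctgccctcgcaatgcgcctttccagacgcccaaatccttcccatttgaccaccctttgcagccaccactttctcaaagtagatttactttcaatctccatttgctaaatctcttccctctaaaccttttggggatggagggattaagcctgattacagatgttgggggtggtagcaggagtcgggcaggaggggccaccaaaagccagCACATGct
BCL2A1, chr15:79971197-79971446, minus strand: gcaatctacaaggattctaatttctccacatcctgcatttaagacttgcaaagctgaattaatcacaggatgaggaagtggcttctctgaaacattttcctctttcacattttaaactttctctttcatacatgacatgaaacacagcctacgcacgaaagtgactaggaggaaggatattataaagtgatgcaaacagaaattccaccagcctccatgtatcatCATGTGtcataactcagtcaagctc

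TYR holds CATGTG 104 and 12 bases before its start, TYRP1 144 and 11, TRPM1 8 and BCL2A1 25. Over the lower pigmentation genes with a listed promoter, 4 of 10 held CATGTG on either strand, which was found in 5.47% of the promoters of all genes tested and in 9.54% of all 27305 listed human promoters. Among genes lower by at least 8-fold in both comparisons 11.6% of 112 promoters held it, against 9.20% of 87 among genes higher by at least 8-fold. The related E-box CACGTG was in 4.46% and 4.6% of the same promoters, against 9.35% over all genes tested. These are matches of letters in a short window and not sites of binding.

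MITF targets outside pigmentation followed the same direction. Of 33 tested, 28 were lower, 26 of them by at least 2-fold (78.8%, against 9.43% of all genes tested), and 1 was higher. In 10 of the lower genes A375 was at the floor on all 4 arrays. Those passed the filter through the other lines alone and could not come out higher, so the share is in part set by the filter. The list's median differences were -4.33 and -3.27. TRPM1, a cation channel whose gene hosts a microRNA, was not detected above the floor in A375. TRPM1 read the floor of 32 on all 4 A375 arrays, against 1141, 1136, 1046 and 1139.8 on the SKMEL5 arrays and 956, 846, 988 and 1182 on the WM2664 arrays. BCL2A1, an anti-apoptotic BCL2 relative, was at least 44.4-fold lower than in SKMEL5 and at least 74.7-fold lower than in WM2664. BCL2A1 read 35, 32, 32 and 34.1 on the A375 arrays, against 1457, 1460.3, 1472 and 1518 on the SKMEL5 arrays and 2684, 2729.9, 2279.5 and 2284 on the WM2664 arrays. PPARGC1A encodes PGC1-alpha, the coactivator of mitochondrial biogenesis. PPARGC1A read the floor of 32 on all 4 A375 arrays, against 773, 669, 651 and 685 on the SKMEL5 arrays and 285, 251, 288 and 327 on the WM2664 arrays. All 3 genes thus separated A375 from both lines without overlap.

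The membrane glycoprotein GPM6B (-6.04 ± 0.07, -6.28 ± 0.07) and the leucine zipper protein LZTS1 (-5.28 ± 0.08, -4.94 ± 0.08) were among the 15 lower genes with the largest smaller difference. APOE, a lipid carrier, was at the floor in A375 and differed by -3.89 ± 0.09 against SKMEL5 and -7.13 ± 0.09 against WM2664, and IRF4, a lymphoid and melanocytic transcription factor, by -4.30 ± 0.09 against SKMEL5 and -3.93 ± 0.09 against WM2664. SLC7A5, an amino acid transporter, was the higher member. SLC7A5 read 5480.3, 5728, 5489 and 5887 on the A375 arrays, against 2734, 2836, 3196 and 2419 on the SKMEL5 arrays and 2642, 1984, 2420.4 and 2365 on the WM2664 arrays. The other 4 tested members were not called in both comparisons in one direction.

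Lysosomal genes were lower in A375 as well. Of 22 tested, 14 were lower, 10 of them by at least 2-fold (45.5%, against 9.43% of all genes tested), and 1 was higher by under 2-fold. PSAP encodes the precursor of the saposins, which help degrade sphingolipids. PSAP read 1279.8, 1279, 1305 and 1305 on the A375 arrays, against 5634, 5597, 5833 and 5728 on the SKMEL5 arrays and 4793, 4653, 4589 and 5041 on the WM2664 arrays. The protease CTSD differed by -2.32 ± 0.12 against SKMEL5 and -1.93 ± 0.12 against WM2664, the sialidase NEU1 by -2.85 ± 0.09 against SKMEL5 and -1.79 ± 0.09 against WM2664 and the membrane protein SCARB2 by -1.57 ± 0.04 against SKMEL5 and -1.79 ± 0.04 against WM2664. The higher member was TFE3, a relative of MITF that also drives lysosomal genes. TFE3 read 1179.7, 1165, 1168 and 1195 on the A375 arrays, against 714, 734, 772 and 746 on the SKMEL5 arrays and 399, 409, 518 and 383 on the WM2664 arrays. Its A375 arrays lay above all others. TFEB, another relative, did not reach the filter on low values.

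Several of the largest lower genes lay outside these lists. HMCN1, a hemicentin of the extracellular matrix, and SDC3, a syndecan, were not read above the floor in A375. HMCN1 was at least 42.3-fold lower than in SKMEL5 and at least 63-fold lower than in WM2664 and SDC3 at least 33.5-fold lower than in SKMEL5 and at least 79.7-fold lower than in WM2664. The laminin chain LAMA1 and MGP, an inhibitor of calcification, were also at the floor there, with differences of -5.51 ± 0.05 against SKMEL5 and -4.94 ± 0.05 against WM2664 and -4.91 ± 0.09 against SKMEL5 and -6.86 ± 0.09 against WM2664. ST3GAL6, a sialyltransferase, belongs to the same set at -6.24 ± 0.20 against SKMEL5 and -5.07 ± 0.20 against WM2664, but one of its other probe sets, bright on all 12 arrays, had the opposite sign, at 1.53 and 1.42.

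The genes of the low-MITF, mesenchymal-like state were mostly higher in A375. Of 35 tested, 29 were higher than in both lines, 24 of them by at least 2-fold (68.6%, against 9.99% of all genes tested), and 1 was lower. The list's median differences were 3.16 and 2.55. EGFR, NGFR, INHBA, CD274, PRDM1, F3, KRT8 and TCF4 were above 64 only on the 4 A375 arrays. They passed the filter through A375 alone and could not come out lower, so the 68.6% is in part set by the filter. The list was also chosen with earlier results of these data known. AXL, a receptor tyrosine kinase that marks the state, differed more from SKMEL5 than from WM2664. AXL read 3611, 3455, 4132 and 3696 on the A375 arrays, against the floor on all 4 SKMEL5 arrays and 459, 491, 437 and 391 on the WM2664 arrays. WM2664 thus lay between the other lines, and A375 was at least 116-fold higher than in SKMEL5 and 8.39-fold higher than in WM2664. EGFR was dimmer. EGFR read 263, 262, 255 and 259 on the A375 arrays, against 48.1, 32, 53.4 and 50.8 on the SKMEL5 arrays and the floor on all 4 WM2664 arrays. NGFR, a neurotrophin receptor of a neural crest-like state, was also dim in A375, with 192, 200.5, 202 and 176, against the floor on all 4 SKMEL5 arrays and 33.2 to 53.8 in WM2664.

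DKK1 read 4726, 4669.6, 4616 and 4338 on the A375 arrays, against 97.1, 97.3, 71.2 and 83.6 on the SKMEL5 arrays and 84.6, 84.9, 80.6 and 122 on the WM2664 arrays. DKK1, a Wnt antagonist, was thus 53-fold higher than in SKMEL5 and 50-fold higher than in WM2664 with no overlap. INHBA forms activin A. INHBA read 1808, 1755, 1520.1 and 1661 on the A375 arrays, against the floor on all 8 arrays of the other lines. WNT5A, a noncanonical Wnt ligand tied to invasion, was higher by 3.70 ± 0.16 against SKMEL5 and 4.78 ± 0.16 against WM2664. THBS1 read 8169, 8557, 7495 and 7286 on the A375 arrays, against 75.9, 76, 57.1 and 50.8 on the SKMEL5 arrays and 3153, 2963, 2589 and 2608 on the WM2664 arrays. THBS1, thrombospondin, thus differed far more from SKMEL5 than from WM2664.

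Cell-surface and nuclear members followed. AMIGO2 read 5911, 5825, 5567 and 5995 on the A375 arrays, against 469, 552, 461 and 469.9 on the SKMEL5 arrays and 32, 32, 32 and 63.7 on the WM2664 arrays. AMIGO2, an adhesion protein, had its largest difference from WM2664, 3.58 ± 0.19 against SKMEL5 and 7.26 ± 0.19 against WM2664. PLAUR, the urokinase receptor, was higher by 3.26 ± 0.12 against SKMEL5 and 2.03 ± 0.12 against WM2664, and CD274, which encodes PD-L1, was at the floor in both other lines and higher by 3.16 ± 0.11 against SKMEL5 and 3.16 ± 0.11 against WM2664. F3, tissue factor, was higher by 2.38 ± 0.15 against SKMEL5 and 2.55 ± 0.15 against WM2664. HMGA2, an architectural chromatin protein of embryonic cells, was higher by 3.56 ± 0.08 against SKMEL5 and 2.18 ± 0.08 against WM2664 and the repressor PRDM1 by 3.25 ± 0.06 against SKMEL5 and 3.25 ± 0.06 against WM2664. The keratin KRT18, a filament protein of simple epithelia that the list counts, was among the largest differences. KRT18 read 5556, 5318, 6761 and 6423 on the A375 arrays, against the floor on all 4 SKMEL5 arrays and 148, 179, 139 and 205 on the WM2664 arrays. Its partner KRT8 was higher by 3.32 ± 0.17 against SKMEL5 and 3.29 ± 0.17 against WM2664.

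Of the other 6 tested members, 1 was lower and 5 were not called in both comparisons in one direction. TNC, tenascin C, was lower, with A375 arrays from 1090.0 to 1283, against 1459.9 to 1779 in SKMEL5 and 4495 to 4805 in WM2664; another of its probe sets was at the floor on both sides of the comparison with SKMEL5, and the call against SKMEL5 was lost without normalization between arrays. IL6 read 146, 154, 163 and 154 on the A375 arrays, against 848, 845, 758 and 791 on the SKMEL5 arrays and 40.8, 32, 32 and 32 on the WM2664 arrays. IL6 was thus intermediate in A375. SERPINE2 was higher than in SKMEL5 and lower than in WM2664 (1.40 ± 0.06, -0.45 ± 0.06), the second call being lost without that normalization, and TGFBI was lower than in SKMEL5 and higher than in WM2664 (-0.39 ± 0.15, 4.49 ± 0.15); the call of TGFBI against SKMEL5 was lost in 5 of the 12 fits that left out 1 array. UCN2, a urocortin, differed by 0.18 ± 0.25 against SKMEL5 and -2.06 ± 0.25 against WM2664, and CYRIB, a regulator of actin, by -0.02 ± 0.05 against SKMEL5 and 0.35 ± 0.05 against WM2664. LOX, GREM1 and PLAU did not reach the filter.

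**Figure D3:**
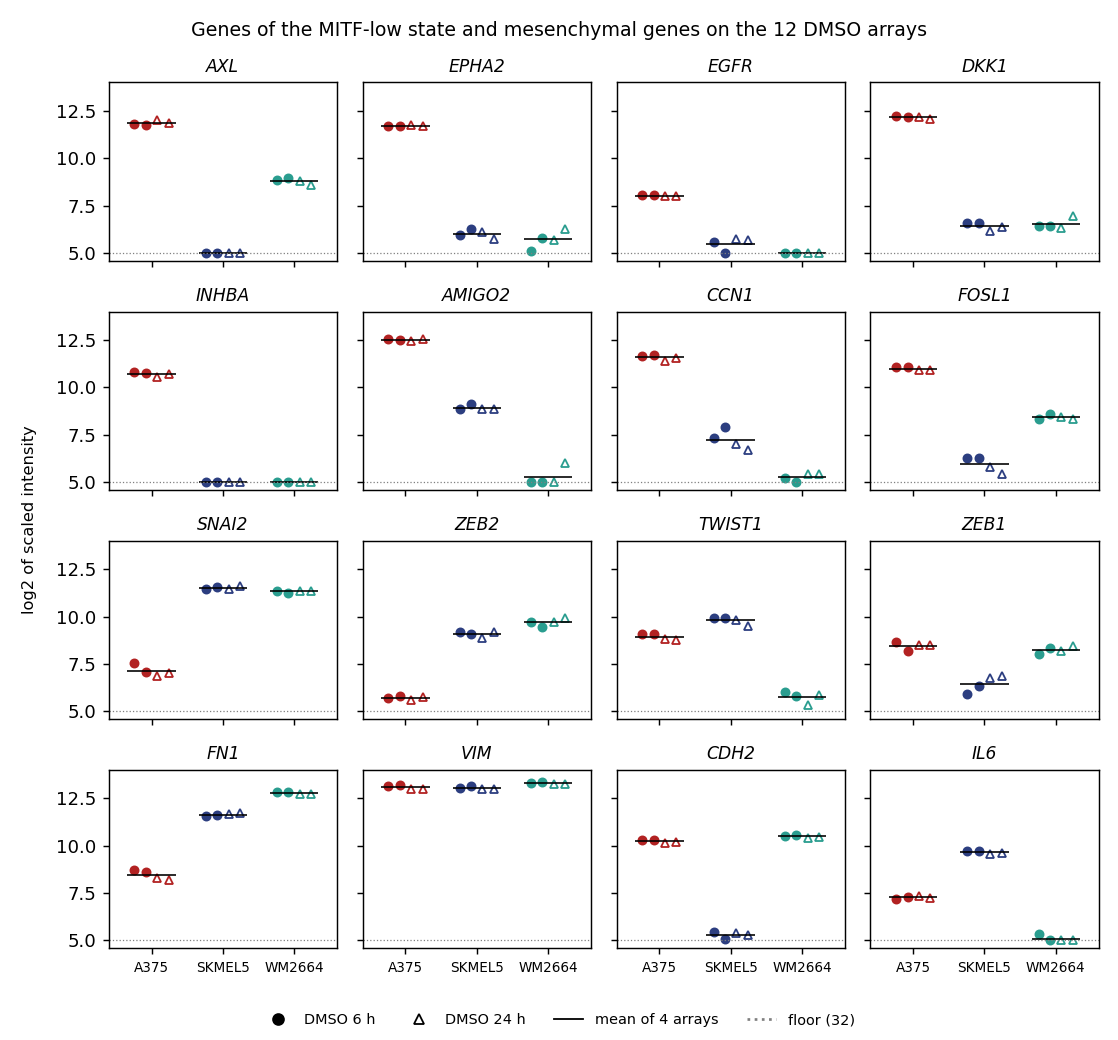
Scaled intensity (log2) of 16 genes on each of the 12 DMSO arrays, drawn as for the melanocytic genes with A375 left. A375 lies above both other lines for the genes of the upper 2 rows, below both for SNAI2, ZEB2 and FN1, and between or level with them for TWIST1, ZEB1, VIM, CDH2 and IL6.

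Receptor tyrosine kinases as a family did not move one way: 5 of 19 tested were higher and 6 lower, 4 each by at least 2-fold. That is 21.1% each way by at least 2-fold, against 9.99% higher and 9.43% lower over all genes tested. The called shares were 26.3% higher and 31.6% lower, against 31.7% and 24.8%. EPHA2, an ephrin receptor, had the largest smaller difference of the higher ones, while AXL differed more from SKMEL5. EPHA2 read 3345, 3295, 3498 and 3274 on the A375 arrays, against 60.8, 77, 67.8 and 53.8 on the SKMEL5 arrays and 34.2, 55.9, 51.8 and 76.5 on the WM2664 arrays. It was 52.2-fold higher than in SKMEL5 and 63.9-fold higher than in WM2664. FGFR1 was higher by 1.08 ± 0.10 against SKMEL5 and 1.07 ± 0.10 against WM2664, but the call against SKMEL5 was lost with another probe set. Its other probe sets bright on all 12 arrays gave 0.10 to 0.50 against SKMEL5 and 0.04 to 0.97 against WM2664. One bright on 11 arrays gave 1.26 and 1.02. Besides ERBB3, the lower ones included EPHA3 (-3.56 ± 0.07, -3.20 ± 0.07) and INSR (-2.33 ± 0.08, -2.17 ± 0.08). The other 8, MET among them, were not called in both comparisons in one direction.

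Downstream of these receptors, 7 of 25 genes of MAP kinase output were higher and 12 lower, 5 and 6 of them by at least 2-fold. Their 2-fold shares were 20% and 24%, against 9.99% and 9.43% of all genes tested. The phosphatase DUSP5 (1.89 ± 0.11, 1.40 ± 0.11) and the kinase PLK2 (1.71 ± 0.06, 1.28 ± 0.06) were higher. The feedback inhibitor SPRY1 (-4.14 ± 0.14, -2.61 ± 0.14), the pseudokinases TRIB1 (-2.49 ± 0.06, -2.86 ± 0.06) and TRIB2 (-3.52 ± 0.07, -4.52 ± 0.07) and the growth regulator MYC were lower. MYC read 581, 544, 465 and 539 on the A375 arrays, against 2038, 2008, 2289.7 and 2333 on the SKMEL5 arrays and 2079.7, 2125, 2054 and 2058 on the WM2664 arrays. Of 11 tested AP-1 subunits, 7 were higher, 4 by at least 2-fold (36.4%, against 9.99% of all genes tested), and none was lower. FOSL1 read 2154, 2164, 1917 and 1919.5 on the A375 arrays, against 77.2, 76.1, 56.2 and 43.3 on the SKMEL5 arrays and 321, 381, 349 and 322 on the WM2664 arrays. FOSL1 encodes FRA1, and it was 33.1-fold higher than in SKMEL5 and 5.95-fold higher than in WM2664. JUN was higher by 3.18 ± 0.15 against SKMEL5 and 1.98 ± 0.15 against WM2664, FOSL2 by 1.63 ± 0.11 against SKMEL5 and 2.42 ± 0.11 against WM2664 and JUNB by 1.10 ± 0.14 against SKMEL5 and 1.53 ± 0.14 against WM2664. The other 4 were not called in both comparisons in one direction.

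YAP and its paralogue TAZ act through TEAD factors to drive growth and matrix genes. Of 20 tested genes of this list, 14 were higher, 12 by at least 2-fold (60%, against 9.99% of all genes tested), and 2 were lower at under 2-fold. CCN1 and CCN2 encode matricellular proteins and are standard targets. CCN1 read 3259.8, 3362, 2717 and 3037 on the A375 arrays, against 163, 237, 127 and 102 on the SKMEL5 arrays and 37.2, 32, 43.7 and 42.5 on the WM2664 arrays. CCN2 read 1773, 1876, 1559 and 1319 on the A375 arrays, against 452, 525, 487 and 469 on the SKMEL5 arrays and 154, 107, 206 and 167 on the WM2664 arrays. A375 was highest for both genes, and WM2664 lowest. AJUBA, a LIM protein, was higher by 3.33 ± 0.10 against SKMEL5 and 3.39 ± 0.10 against WM2664 and AMOTL2, an angiomotin, by 3.24 ± 0.15 against SKMEL5 and 3.80 ± 0.15 against WM2664. CRIM1, a transmembrane regulator of BMPs, was higher by 4.87 ± 0.17 against SKMEL5 and 4.47 ± 0.17 against WM2664. TEAD4 itself was higher by 1.90 ± 0.11 against SKMEL5 and 2.44 ± 0.11 against WM2664, whereas YAP1 was higher than in SKMEL5 and lower than in WM2664 (0.68 ± 0.07, -0.59 ± 0.07), the second call being lost without normalization between arrays. The 2 lower members were TEAD1 (-0.93 ± 0.09, -0.76 ± 0.09) and the TAZ gene WWTR1 (-0.54 ± 0.05, -0.26 ± 0.05), and for both another bright probe set had the opposite sign against WM2664, 0.09 for TEAD1 and 1.52 for WWTR1; the WWTR1 difference from WM2664 also turned to 0.15 without normalization between arrays. NT5E, counted as higher in this list and in that of the low-MITF state, also had a bright probe set of opposite sign, -1.34 against WM2664. Lists overlap here, since CCN1, CCN2, CRIM1, AXL, F3 and TEAD4 are each counted in more than 1.

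The promoters of higher genes shown next all hold a match to a sequence read by TEAD or AP-1 factors. As above, most promoters of the genes at least 8-fold higher hold no match to the sequence in question. Capitals mark GGAATG or its reverse complement CATTCC, the core read by TEAD factors, in CCN2 and EPHA2, and TGANTCA, the core read by AP-1, in S100A2 and IL11, a calcium-binding protein and a cytokine that are described below.

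CCN2, chr6:131951373-131951622, minus strand: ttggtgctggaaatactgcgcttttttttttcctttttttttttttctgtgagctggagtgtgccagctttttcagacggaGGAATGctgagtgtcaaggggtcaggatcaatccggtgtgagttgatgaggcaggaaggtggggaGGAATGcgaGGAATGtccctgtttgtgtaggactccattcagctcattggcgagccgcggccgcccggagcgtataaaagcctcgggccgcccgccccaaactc
EPHA2, chr1:16156070-16156319, minus strand: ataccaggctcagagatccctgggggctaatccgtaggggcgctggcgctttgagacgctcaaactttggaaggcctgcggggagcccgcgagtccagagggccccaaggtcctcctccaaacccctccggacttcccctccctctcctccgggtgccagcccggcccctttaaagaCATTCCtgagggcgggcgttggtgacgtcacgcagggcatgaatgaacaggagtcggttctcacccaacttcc
S100A2, chr1:153565845-153566094, minus strand: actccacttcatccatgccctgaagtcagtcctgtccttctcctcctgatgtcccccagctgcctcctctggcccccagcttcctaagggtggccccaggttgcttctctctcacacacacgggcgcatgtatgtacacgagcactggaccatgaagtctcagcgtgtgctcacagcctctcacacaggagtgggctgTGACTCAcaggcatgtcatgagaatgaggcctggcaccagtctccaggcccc
IL11, chr19:55370464-55370713, minus strand: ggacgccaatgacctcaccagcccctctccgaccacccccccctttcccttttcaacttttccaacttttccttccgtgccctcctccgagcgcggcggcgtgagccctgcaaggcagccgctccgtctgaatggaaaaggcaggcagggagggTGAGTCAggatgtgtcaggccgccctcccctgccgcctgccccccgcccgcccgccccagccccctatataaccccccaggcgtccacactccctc

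CCN2 holds GGAATG 169, 104 and 95 bases before its start and EPHA2 73, and TGANTCA lies 52 bases before the start of S100A2 and 96 before that of IL11. TGANTCA, on either strand, was in 11.5% of the 87 promoters of genes higher by at least 8-fold, against 4.46% of the 112 of genes lower by at least 8-fold and 3.77% over all genes tested. GGAATG was in 12.6% of the 87 promoters of higher genes, against 8.04% of the 112 of lower genes and 9.27% over all. Among 27305 listed human promoters the shares were 6.6% and 11.9%.

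Cytokines and NF-kappaB genes leaned to the higher side, with 13 of 22 tested higher, 8 of them by at least 2-fold, and 2 lower, 1 of them by at least 2-fold. The 2-fold shares were 36.4% and 4.55%, against 9.99% and 9.43% of all genes tested. IL11 read 507, 539, 508 and 607 on the A375 arrays, against the floor on all 8 arrays of the other lines. IL24 read 460.3, 429, 346 and 418 on the A375 arrays, against the floor on all 8 arrays of the other lines. IL7R read 732, 816, 613 and 608 on the A375 arrays, against the floor on all 8 arrays of the other lines. The secreted IL11 and IL24 and the receptor IL7R were thus each read in A375 alone among these lines, and passed the filter through A375 alone. TNFRSF12A, the TWEAK receptor, was higher by 3.46 ± 0.10 against SKMEL5 and 2.93 ± 0.10 against WM2664 and NFKB2 by 1.58 ± 0.14 against SKMEL5 and 2.02 ± 0.14 against WM2664. ICAM1, an adhesion molecule, was the member lower by at least 2-fold, at -1.04 ± 0.11 against SKMEL5 and -2.10 ± 0.11 against WM2664. TNFRSF10B was the other lower member (-0.53, -0.65). Of its other probe sets, 2 were bright on all 12 arrays and had the opposite sign, at 0.34 and 0.37 and at 0.32 and 0.43.

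The transcription factors of the epithelial-mesenchymal transition were divided. Of 11 tested, 6 were higher, 5 by at least 2-fold (45.5%, against 9.99% of all genes tested). TCF4, FOXC2 and TWIST2 among them were above 64 only on the 4 A375 arrays. They passed the filter through A375 alone and could not come out lower, so this share is in part set by the filter. Another 2 were lower, both by at least 2-fold (18.2%, against 9.43%). Both lower ones are factors of normal melanocytes. SNAI2 read 188, 133, 117 and 129 on the A375 arrays, against 2801, 3057, 2824 and 3087 on the SKMEL5 arrays and 2605, 2414, 2630.4 and 2613 on the WM2664 arrays. ZEB2 read 51.8, 56.7, 48.3 and 53.3 on the A375 arrays, against 583, 549, 459 and 575 on the SKMEL5 arrays and 836, 710.2, 824 and 963 on the WM2664 arrays. SNAI2 was thus 21.1-fold lower than in SKMEL5 and 18.4-fold lower than in WM2664 and ZEB2 10.3-fold lower than in SKMEL5 and 15.8-fold lower than in WM2664. ZEB1 and TWIST1, which often replace them in cells with low MITF, were not higher than in both lines. ZEB1 read 411, 289.9, 364 and 362 on the A375 arrays, against 59.8, 80.5, 108 and 114 on the SKMEL5 arrays and 258, 327, 294 and 349 on the WM2664 arrays. TWIST1 read 536, 549.9, 447 and 435 on the A375 arrays, against 965, 978, 918 and 720.3 on the SKMEL5 arrays and 63.7, 55, 40.2 and 57.8 on the WM2664 arrays. ZEB1 in A375 overlapped WM2664, and TWIST1 in A375 lay between SKMEL5 and WM2664. PRRX1 lay between the other lines as well. The higher members were TCF4, which encodes an E protein, at 2.99 ± 0.05 against SKMEL5 and 2.99 ± 0.05 against WM2664, the forkhead genes FOXC2 (3.18 ± 0.14, 3.18 ± 0.14) and FOXF2 (1.65 ± 0.07, 3.57 ± 0.07), TWIST2 (2.62 ± 0.12, 2.89 ± 0.12), TEAD4, and KLF4 at 0.98 ± 0.15 against SKMEL5 and 3.44 ± 0.15 against WM2664.

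Structural genes of mesenchymal cells went both ways: 6 of 16 tested were higher and 4 lower, 4 and 2 of them by at least 2-fold. The 2-fold shares were 25% and 12.5%, against 9.99% and 9.43% of all genes tested. The called shares were 37.5% and 25%, near the 31.7% and 24.8% of all genes tested. FN1, fibronectin, was lower. FN1 read 419.6, 392, 317 and 289.9 on the A375 arrays, against 3059, 3096, 3234 and 3386 on the SKMEL5 arrays and 7270.3, 7181, 6683 and 6706 on the WM2664 arrays. VIM, the mesenchymal filament protein vimentin, was bright and close in all lines. VIM read 9236, 9301, 8225 and 8207 on the A375 arrays, against 8345, 9012, 8097 and 8122 on the SKMEL5 arrays and 9960.0, 10328, 9761 and 9761 on the WM2664 arrays. Its differences were 0.06 ± 0.05 against SKMEL5 and -0.19 ± 0.05 against WM2664, the second of which turned to 0.12 without normalization between arrays. CDH2, N-cadherin, separated SKMEL5 from the other lines instead, with 1147 to 1264 in A375, against 34.2 to 43.5 in SKMEL5 and 1345 to 1515 in WM2664; its difference of -0.25 from WM2664 was 0.19 without that normalization. CALD1, an actin-binding protein, was lower by -1.39 ± 0.05 against SKMEL5 and -1.27 ± 0.05 against WM2664. SPARC, also counted as lower, differed by -0.16 against SKMEL5 and -0.56 against WM2664. Another of its probe sets, bright on all 12 arrays, gave 1.49 against SKMEL5 and -1.14 against WM2664. Higher members were S100A4, a calcium-binding protein of motile cells, and ANXA1, an annexin. S100A4 read 6245, 6251, 8468 and 6451 on the A375 arrays, against the floor on all 4 SKMEL5 arrays and 56.9, 55.1, 63.8 and 210.4 on the WM2664 arrays. ANXA1 read 7908, 7893, 8149 and 7979 on the A375 arrays, against 805, 764, 759 and 813 on the SKMEL5 arrays and 2465, 2475, 2572 and 2574 on the WM2664 arrays. The reading of S100A4 on the second WM2664 24 h array was on the array where genes of A375 read slightly high. PDGFC, a growth factor, was higher by 4.93 ± 0.10 against SKMEL5 and 5.48 ± 0.10 against WM2664. SNAI2, ZEB2, FN1, VIM and CDH2 were thus not higher in A375 than in both other lines, unlike most of the list of the low-MITF state.

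Matrix genes were mixed. Of 26 tested genes of collagens and matrix, 8 were higher and 5 lower, 7 and 4 of them by at least 2-fold. As shares, 26.9% and 15.4% were 2-fold different, against 9.99% and 9.43% of all genes tested. The called shares were 30.8% and 19.2%, against 31.7% and 24.8%. In 5 of the higher genes both other lines were at the floor on all 8 arrays, so those could not come out lower. In 2 of the lower genes A375 was at the floor on all 4 arrays, so those could not come out higher. HAPLN1 read 579.6, 699.9, 508 and 564 on the A375 arrays, against the floor on all 8 arrays of the other lines. HAPLN1, a link protein of hyaluronan, was thus read in A375 alone. COL1A1, a chain of type I collagen, was higher on its brightest probe set, at 1308, 1213, 2254 and 1989 in A375 and the floor elsewhere. Another of its probe sets gave 3.81, 1 gave 0.44, 1 was at the floor on all arrays, and the last gave 0.17 and 0.29, while COL1A2, the partner chain, was at the floor on all A375 arrays. COL13A1 was higher by 3.86 ± 0.09 against SKMEL5 and 3.86 ± 0.09 against WM2664 and COL5A1 by 3.01 ± 0.06 against SKMEL5 and 3.01 ± 0.06 against WM2664. VCAN, versican, and SPP1, osteopontin, were lower by wide margins. VCAN read 157, 152, 139 and 146 on the A375 arrays, against 2101, 2115, 2026 and 2134 on the SKMEL5 arrays and 2618, 2558, 2380.1 and 2510.0 on the WM2664 arrays. SPP1 read 706, 694, 551 and 453 on the A375 arrays, against 6927, 6832, 6145 and 5692 on the SKMEL5 arrays and 10260.0, 9433, 10328 and 10575 on the WM2664 arrays.

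No tested gene of the list of proteases and protease inhibitors was higher than in both lines, against 31.7% of all genes tested, and 26.3% were lower, against 24.8%. Of 19, 5 were lower, 3 by at least 2-fold: MMP8 (-3.28 ± 0.18, -5.72 ± 0.18), ADAMTS1 (-3.40 ± 0.07, -4.40 ± 0.07) and the inhibitor TIMP2 (-2.32 ± 0.05, -2.03 ± 0.05). Of 12 tested integrins, 2 were higher and 6 lower, 1 and 4 by at least 2-fold (8.33% and 33.3%, against 9.99% and 9.43% of all genes tested). ITGA3 was higher by 2.62 ± 0.21 against SKMEL5 and 2.49 ± 0.21 against WM2664, and ITGA9 (-3.67 ± 0.05, -4.09 ± 0.05), ITGA7 (-4.36 ± 0.14, -1.56 ± 0.14), ITGB8 (-1.44 ± 0.07, -2.88 ± 0.07) and ITGAV (-1.04 ± 0.06, -1.74 ± 0.06) were lower.

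In the TGF-beta family, 9 of 21 tested genes were higher and 6 lower, 7 and 6 by at least 2-fold. Besides INHBA, the activin antagonist FST (5.02 ± 0.07, 2.32 ± 0.07), the ligand BMP2 (2.89 ± 0.05, 2.89 ± 0.05) and the target PMEPA1 (4.05 ± 0.13, 3.00 ± 0.13) were higher. The receptors TGFBR1 (-2.46 ± 0.04, -1.90 ± 0.04) and TGFBR3 (-3.19 ± 0.18, -2.52 ± 0.18), the pseudoreceptor BAMBI and the inhibitor ID4 (-4.15 ± 0.10, -4.73 ± 0.10) were lower. BAMBI read 249, 219, 218 and 187 on the A375 arrays, against 4635, 4621, 4701 and 4599.8 on the SKMEL5 arrays and 3832, 3938, 3460.3 and 3397 on the WM2664 arrays. The called shares were 42.9% higher and 28.6% lower, against 31.7% and 24.8% of all genes tested. At 2-fold the shares were 33.3% and 28.6%, against 9.99% and 9.43%. The family thus had members on both sides. In the Wnt pathway, 4 of 16 tested genes were higher and 8 lower, 4 and 2 by at least 2-fold: the receptor FZD2 (4.37 ± 0.14, 3.54 ± 0.14) and the decoy SFRP1 (1.01 ± 0.06, 4.22 ± 0.06) joined WNT5A and DKK1, and TCF7L1 (-1.98 ± 0.10, -2.13 ± 0.10) joined LEF1. The 2-fold shares of the pathway were 25% and 12.5%, against the same 9.99% and 9.43%.

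**Figure D4:**
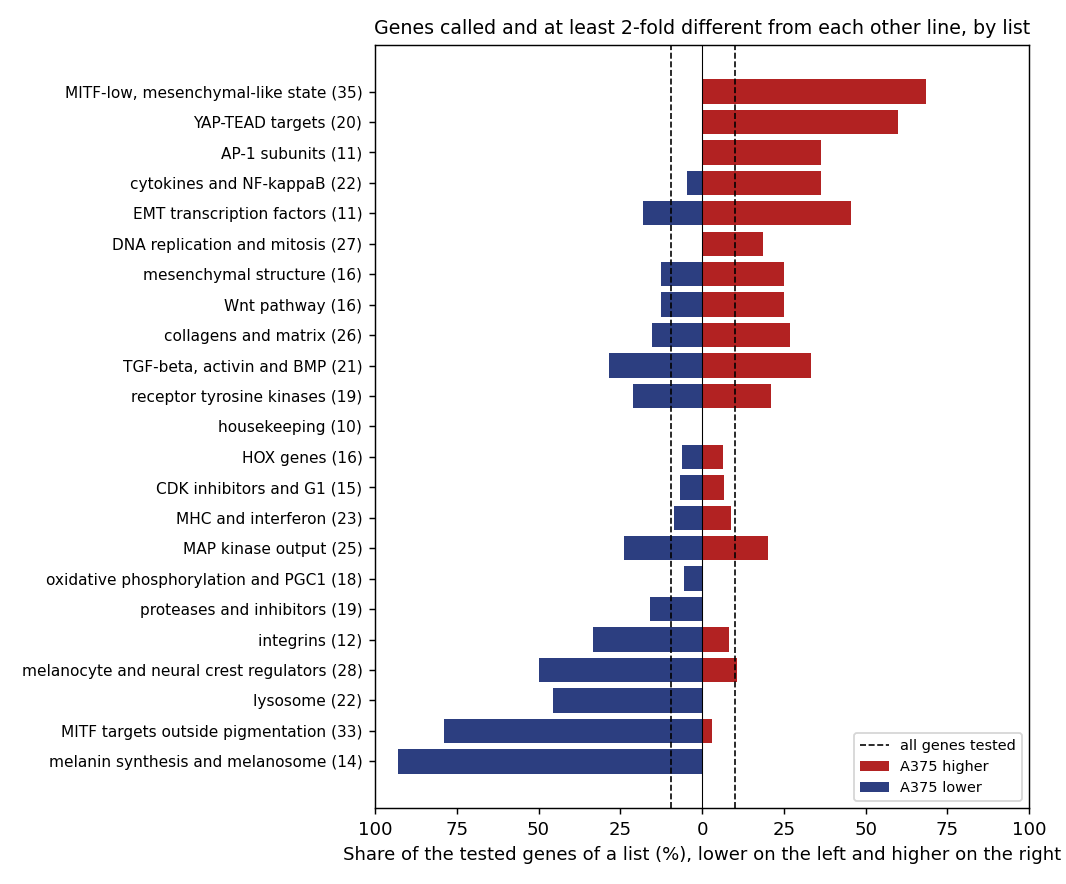
Share of the tested genes of each list (number in parentheses) that were called and at least 2-fold different from both other lines, with A375 higher drawn to the right in red and A375 lower to the left in blue; lists with at least 10 tested genes are shown. Dashed lines are the shares over all genes tested, 9.99% higher and 9.43% lower. The list of the low-MITF state reaches 68.6% on the right and pigmentation 92.9% on the left. Genes above 64 only on the A375 arrays passed the filter through A375 and could not come out lower. Genes at the floor on all A375 arrays could not come out higher.

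Proliferation genes leaned one way by small amounts. Of 27 tested genes of DNA replication and mitosis, 17 were higher in A375 (63.0%, against 31.7% of all genes tested) and none was lower. By at least 2-fold 5 were higher (18.5%, against 9.99%). The median differences were 0.58 and 0.53. MCM2 read 1099.5, 1167, 1606 and 1731 on the A375 arrays, against 179.6, 204, 264 and 165 on the SKMEL5 arrays and 182, 203, 309 and 311 on the WM2664 arrays. MCM2, a subunit of the replicative helicase, had the largest smaller difference of the list. The licensing factor CDT1 (1.73 ± 0.09, 1.57 ± 0.09), the kinase PLK1 (1.82 ± 0.22, 1.55 ± 0.22) and the cyclin CCNB1 (1.02 ± 0.09, 1.21 ± 0.09) followed. Among CDK inhibitors and G1 genes, 7 of 15 were higher and 2 lower, 1 each by at least 2-fold. Called shares were 46.7% and 13.3%, against 31.7% and 24.8% of all genes tested. At 2-fold the list had 6.67% each way, against 9.99% and 9.43%. CDK4 and CDK6 were higher at 0.45 ± 0.05 against SKMEL5 and 0.66 ± 0.05 against WM2664 and 1.56 ± 0.08 against SKMEL5 and 0.42 ± 0.08 against WM2664, and the inhibitor CDKN1B was lower at -0.97 ± 0.05 against SKMEL5 and -0.60 ± 0.05 against WM2664, a call that was lost against WM2664 without normalization between arrays.

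The MHC and interferon, oxidative phosphorylation, HOX and housekeeping lists had 2-fold shares below those over all genes tested, 9.99% higher and 9.43% lower. The MHC and interferon list was close to them, at 8.7% each way. In the MHC and interferon list 3 of 23 tested genes were higher and 7 lower, 2 each by at least 2-fold, with HLA-E at -1.37 ± 0.05 against SKMEL5 and -1.15 ± 0.05 against WM2664, IFI6 at -1.08 ± 0.11 against SKMEL5 and -1.01 ± 0.11 against WM2664, IFI44 at 4.08 ± 0.10 against SKMEL5 and 2.33 ± 0.10 against WM2664 and IRF1 at 1.79 ± 0.15 against SKMEL5 and 2.14 ± 0.15 against WM2664. The HLA-E probe set can also read related HLA genes, and the call against SKMEL5 was lost with another probe set. In oxidative phosphorylation 2 of 18 were higher (11.1%, against 31.7% of all genes tested) and 7 lower (38.9%, against 24.8%), and PPARGC1A was the only one at 2-fold or more, while the complex I subunit NDUFS1 differed by -0.82 ± 0.05 against SKMEL5 and -0.88 ± 0.05 against WM2664. Of 16 tested HOX genes 6 were higher and 2 lower, 1 each by at least 2-fold, namely HOXC11 (1.80 ± 0.15, 1.29 ± 0.15) and HOXD8 (-1.22 ± 0.10, -1.83 ± 0.10). Of 10 housekeeping genes 2 were higher and 2 lower, none by 2-fold. The called shares in the MHC and interferon list were 13.0% higher and 30.4% lower. They were 37.5% and 12.5% for HOX and 20% each way for housekeeping, against 31.7% and 24.8% of all genes tested.

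The genes furthest above both lines were not lineage genes. MAGEA4, a cancer-testis antigen of the X chromosome, had the largest smaller difference of the higher genes. MAGEA4 read 5292, 5424, 5474 and 5507 on the A375 arrays, against 32, 32, 44 and 32 on the SKMEL5 arrays and 32, 32, 32 and 97.4 on the WM2664 arrays. SPANXB1, a sperm protein also encoded on the X chromosome, and GTSF1, a germline factor of the piRNA pathway, were at the floor in both other lines. SPANXB1 read 3223, 3173, 3202 and 3022 on the A375 arrays, against the floor on all 8 arrays of the other lines. GTSF1 read 2283, 2163, 2336 and 2217 on the A375 arrays, against the floor on all 8 arrays of the other lines. These germline genes were thus bright on every A375 array. TPM2, a tropomyosin, was at least 77.3-fold higher than in SKMEL5 and at least 76.1-fold higher than in WM2664, and TGM2, transglutaminase 2, was 57.8-fold higher than in SKMEL5 and at least 68.9-fold higher than in WM2664. S100A2, at least 53.7-fold higher than in SKMEL5 and at least 53.7-fold higher than in WM2664, and LY6K, at least 56.6-fold higher than in SKMEL5 and at least 48-fold higher than in WM2664, also belong to this set. TMSB4X, an actin-sequestering peptide, rested on 1 probe set, which was at the floor in both other lines, and the noncoding LINC01029 had differences of 6.50 ± 0.05 against SKMEL5 and 6.44 ± 0.05 against WM2664.

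TUSC1 was a further member of this set and lies on chromosome 9, as CDKN2A does. TUSC1 read 1948, 1912, 1723 and 1815 on the A375 arrays, against the floor on all 4 SKMEL5 arrays and 32, 32, 32 and 40.4 on the WM2664 arrays. Along the chromosomes in the order of the RefSeq table (GRCh38.p14), 17 runs of at least 8 adjacent tested genes were all called higher in A375 and 4 runs all lower. One run of 8 contained MIR31HG, MTAP, CDKN2A, ELAVL2, TUSC1, CAAP1, PLAA and IFT74, with a median smaller difference of 1.78. MTAP read 954, 993, 956 and 996 on the A375 arrays, against the floor on all 4 SKMEL5 arrays and 270.2, 192, 279 and 258 on the WM2664 arrays. MTAP, a metabolic enzyme, was thus at the floor in SKMEL5 and lower in WM2664 than in A375. CDKN2A read 77.8, 94, 66 and 77.5 on the A375 arrays, against 32, 32, 32 and 43.7 on the SKMEL5 arrays and 38.6, 32, 32 and 32 on the WM2664 arrays. CDKN2A, which encodes the cell-cycle inhibitors p16 and p14ARF, was dim in A375 and at or near the floor in the other lines. The longest higher run held 14 genes, TPM4 and KLF2 among them, and the longest lower ones held 11 genes each. MTAP and these runs were chosen after their values were seen, and gene copy number was not measured here.

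Markers of other cell types were read beside these genes. Of 6 tested keratinocyte and epithelial markers 4 were higher and 2 lower in A375 (66.7% and 33.3%, against 31.7% and 24.8% of all genes tested). KRT14 was higher by 3.16 ± 0.07 against SKMEL5 and 3.16 ± 0.07 against WM2664, SFN by 2.38 ± 0.20 against SKMEL5 and 2.64 ± 0.20 against WM2664 and DSP by 1.28 ± 0.05 against SKMEL5 and 3.33 ± 0.05 against WM2664, and CLDN1 (-3.75 ± 0.13, -3.93 ± 0.13) and ESRP1 (-4.45 ± 0.06, -3.56 ± 0.06) were lower. KRT5, EPCAM, DSG3, CLDN4 and GRHL2 were at the floor on all arrays, and the summed level of the 12 markers on the array was 5116 to 5244 in A375, 4123 to 4442 in SKMEL5 and 3908 to 4035 in WM2664. The 10 fibroblast markers summed to 1779 to 2890 in A375, 4672 to 5420 in SKMEL5 and 4559 to 4849 in WM2664, and COL1A2, COL3A1, THY1, FAP and TCF21 were at the floor in A375. In SKMEL5 8 of the 10 were at the floor, namely COL1A1, COL1A2, COL3A1, PDGFRB, THY1, FAP, POSTN and TCF21. In WM2664 COL1A1, COL3A1, PDGFRB and TCF21 were at the floor. The larger SKMEL5 sum thus rests on the few markers left and does not show more fibroblast markers. The 8 leukocyte markers summed to 287 to 313 in A375, 256 to 266 in SKMEL5 and 256 to 262 in WM2664, where 256 is the floor of all 8. The 7 endothelial markers summed to 258 to 304 in A375, 368 to 376 in SKMEL5 and 313 to 348 in WM2664, with CDH5, VWF, TEK, CLDN5 and EMCN at the floor everywhere.

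The 6 arrays of A-485-treated cells had no part in choosing the genes. Normalized and fitted on their own, with line and time, they called 1664 genes higher (15.4% of 10830) and 1632 lower (15.1%) in A375 than in both other lines. Of the 1083 genes higher by at least 2-fold in DMSO, 97.4% of those fitted had the same direction against both lines in A-485, and 843 (78.1%) were called higher. Of the 1022 lower genes, 98.4% had the same direction and 853 (83.5%) were called lower. Over all genes tested 63.3% kept the direction against both lines. That share counts every gene whose DMSO differences ran opposite ways as not keeping it. The 2-fold sets hold no such genes, so the shares are not directly comparable. SOX10 differed by -2.89 ± 0.24 against SKMEL5 and -3.37 ± 0.24 against WM2664 and MITF by -4.25 ± 0.37 against SKMEL5 and -2.74 ± 0.37 against WM2664 in A-485. Some higher genes had smaller differences there, a change that was not tested: of the low-MITF list DKK1 differed by 2.55 ± 0.34 against SKMEL5 and 3.75 ± 0.34 against WM2664 and INHBA by 3.09 ± 0.30 against SKMEL5 and 3.09 ± 0.30 against WM2664, and of the cytokine list IL7R by 1.20 ± 0.19 against SKMEL5 and 1.20 ± 0.19 against WM2664. MAGEA4 (7.45 ± 0.12, 7.45 ± 0.12), EPHA2 (5.39 ± 0.32, 5.44 ± 0.32) and CCN1 (3.76 ± 0.26, 5.48 ± 0.26) stayed far above. On the lower side TRPM1 differed by -1.98 ± 0.72 against SKMEL5 and -1.14 ± 0.72 against WM2664, and PPARGC1A differed by -2.73 ± 0.30 against SKMEL5 and 0.00 ± 0.30 against WM2664. F3 had the opposite sign against both lines (-0.89 ± 0.42, -0.37 ± 0.42), and neither value was called.

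**Figure D5:**
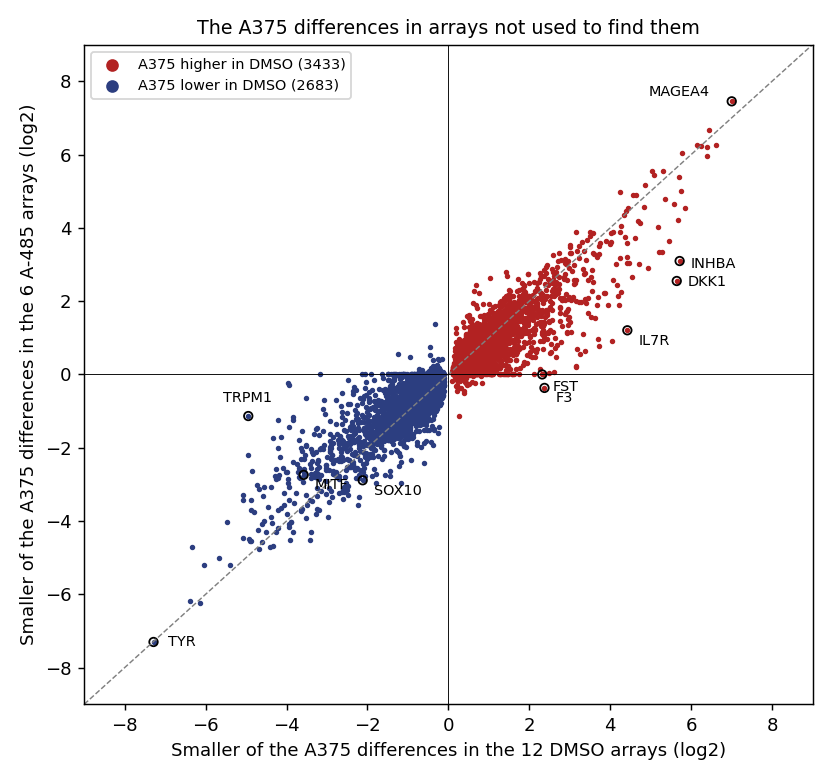
The smaller of the A375 differences (log2, 0 where the differences from the other lines ran opposite ways) in the 6 A-485 arrays (vertical) against the same value in the 12 DMSO arrays (horizontal), for genes called in DMSO; the dashed line marks equal values. Most points keep their sign, and DKK1, INHBA, IL7R and F3 lie below the dashed line among the higher genes.

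Few differences were called as dependent on the time in DMSO. The A375 difference from the mean of the other lines was called as changed between 6 h and 24 h in 70 genes (0.646%), 35 upwards and 35 downwards. By the same test 1588 genes (14.6%) had an unadjusted p under 0.05, where no change in any gene would give a share near 0.05. The count of calls thus does not show how few differences changed. Among the genes named here, the difference was larger at 24 h for COL1A1 (by 0.75 ± 0.08), COL13A1 (0.47 ± 0.06) and KRT8 (0.86 ± 0.12), and smaller for FOXC2 (-0.73 ± 0.06). FOXC2 read 373 and 377 at 6 h and 232 and 219 at 24 h in A375, and the floor in the other lines. The count of 70 rested on single arrays: it ran from 8 without the first SKMEL5 6 h array to 138 without the first SKMEL5 24 h array. It was 1 without the 3 arrays on which genes of another line read slightly high.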

How the data were processed

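RNA of A375, SKMEL5 and WM2664 cells was hybridised to Affymetrix HG-U133 Plus 2.0 arrays, after total RNA extraction and biotin labelling per the labels' protocols. The deposited table holds 1 linear intensity per probe set and array; for the software, background correction and scaling the authors used, nothing is given in the sources used here. On the 12 DMSO arrays 19.3% to 22.9% of intensities were below 0, and array medians ran from 19.5 to 29.0, so the arrays did not share 1 distribution. All columns belonged to samples of the series. The platform annotation gave a single symbol for 41091 of 54613 probe sets, several for 1801 and none for 11721; 41037 symbols were updated by Entrez identifier.

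The 12 arrays were quantile normalized on the linear scale, values under 32 were set to 32, and log2 was taken. Each gene was read from its brightest probe set over the 12 arrays (of 104 genes under the naming rule with several readable probe sets, 6 had one of opposite sign), and the 10841 of 19775 genes above 64 on at least 4 arrays were tested. The model of line and time was fitted with limma 3.58.1 in R 4.3.3 (8 residual degrees of freedom, 2.56 from moderation), with Benjamini-Hochberg adjustment over all genes tested. Quantile normalization hides a shift shared by most genes, and the floor shrinks differences of dim genes. The fit was tested on simulated data.

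The 27 gene lists (576 genes, 435 tested), their members and the tests were chosen with earlier results of these data known. Genes described with values were drawn, though not all, from those a rule allowed: MITF; the 15 genes per direction with the largest smaller difference and no overlap; all such pigmentation, lineage and epithelial-mesenchymal factors; up to 4 per direction of the other lists; and any gene of the low-MITF list. Other names (APOE, IRF4, OCA2, CDH2, VIM, ZEB1, TWIST1, PRRX1, YAP1, MTAP, KLF2, CDH19, SOX2, MET, TFEB, and genes at the threshold, at the floor or below the filter) were chosen after their values were seen, as were the fit of the A-485 arrays and the fit without 3 arrays. Promoter sequences are from RefSeq (GRCh38.p14).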

Additional observations from a re-analysis of the deposited data

Results flagged for a closer look

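Among the 4 arrays of a line, 46 of 476 gene and line groups (9.66%) had 1 array apart from the other 3 by Dixon's criterion, where chance gives about 1 in 20. The first A375 6 h array was high for TYR (59.9), TYRP1 (170.5), PMEL (213), MLANA (252), RAB27A (368), ST3GAL6 (73.8) and S100B (32.6), all far higher in SKMEL5. This is the array on which genes of SKMEL5 stood at a median of 0.78% of their SKMEL5 level. The second WM2664 24 h array was high for MAGEA4 (97.4), S100A4 (210.4), DKK1 (122), AMIGO2 (63.7), TUSC1 (40.4), LINC01029 (37.2), TWIST2 (38.2) and SPRY1 (378). All but SPRY1 were higher in A375, and genes of A375 stood at a median of 0.74% of their A375 level on this array. Whether RNA of another line has a part in the single readings was not tested.

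The other A375 readings apart from their group were EDNRB at 146, IRF1 at 229, IRF4 at 39.9 and KLF4 at 510.4 on the second 24 h array, FST at 882, NT5E at 838, S100A4 at 8468 and INSR at 32.9 on the first 24 h array, and FMO4 at 82.7 and SLC45A2 at 32.03 on the second 6 h array. In SKMEL5 they were AMIGO2 (552) and HOXC11 (32.1) on the second 6 h array, F3 (52.1) and TNC (1459.9) on the first 6 h array, MAGEA4 (44.0), TRPM1 (1046) and FZD2 (32.1) on the first 24 h array, and CDKN2A (43.7), GPNMB (5629), KRT8 (32.8), PDGFC (36.2) and PRRX1 (32.6) on the second 24 h array. In WM2664 they were CDKN2A (38.6), IL6 (40.8) and SOX10 (3017) on the first 6 h array, F3 (32.6) and SNAI2 (2414) on the second 6 h array, and KRT8 (36.0), MIA (2432), TGFBR3 (403) and TPM2 (34.2) on the first 24 h array. Several of these lie within a few units of the floor, where the other arrays of the group have no spread.

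The difference of A375 from the mean of the other lines changed with the time in DMSO for 4 of the genes named: by 0.75 for COL1A1, 0.47 for COL13A1, 0.86 for KRT8 and -0.73 for FOXC2, by the test of that change across all genes.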

How the results depend on the processing

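The counts of genes called against SKMEL5 (8708) and WM2664 (8694), higher than both (3438) and lower than both (2685) stayed within 1.5 times under the alternatives tried, but for 2. Without normalization between arrays 1586 genes were lower; asking for a difference of at least 1 gave 3587 against SKMEL5, 3731 against WM2664, 1083 higher, 1022 lower and 6 for time. The time-dependent count of 70 was 3 with arrays scaled to one median, 3 without normalization, 25, 32 and 142 with floors of 16, 1 and 64, 127 without a filter, 31 above 64 on all arrays, 5 with the replicate block and 1 without the 3 arrays on which genes of another line read slightly high, an alternative chosen after seeing the data. Leaving out 1 array gave 8509 to 8873, 8494 to 8904, 3312 to 3500, 2582 to 2670 and 8 to 138 genes. Replicate numbers did not pair the samples (correlations of deviations between lines from -0.04 to 0.04); with the replicate block 3389 genes were higher and 2641 lower. Signs turned for OCA2 against WM2664 (0.0124 scaled to one median, 0.18 without normalization, 0.0505 at 24 h alone, 0.24 without the 3 arrays, -0.42 to 0.45 leaving out 1 array), CDH2 (0.19), VIM (0.12) and WWTR1 (0.15, and 0.49 with the mean of its probe sets) against WM2664 and ETV4 (0.0096) and CYRIB (0.22, and 0.11 scaled to one median) against SKMEL5 without normalization, UCN2 (-0.0427) at 6 h alone, and FBXL5 (-0.0207) at 24 h alone. Without normalization, calls were also lost in 1 comparison for CDH19, CDKN1B, MIA, SERPINE2, TGFBI, TNC and YAP1, and with a floor of 1 for CDKN2A against WM2664. Over all alternatives, 111 of the gene values lost their call and 34 gained one, most often genes at the threshold. The causes were not tested. Depth does not apply; readings near the floor carry little information on size.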
